A study of Mus musculus with 5 samples.

Results

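The chemokine ligands Cxcl12, Cxcl13, Cxcl14 and Cxcl16 and the receptors Cxcr4, Cxcr5 and Cxcr6 were followed through single cells of the mouse heart and of the mediastinal lymph node. These 7 genes were taken by symbol from the 31053 genes of the count matrices, whatever their values. All 7 had unique molecular identifiers (UMIs, each standing for 1 captured mRNA molecule) in both heart libraries, and 6 had them in the lymph node library. Cxcl14 had 0 UMIs there, which allows at most 3 counts among 38941013.

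The study sampled C57BL/6 mice at different ages, with no treatment other than aging. One heart library came from mice of 18 months and one from mice of 2 months. Both hold sorted cells of a collagenase and dispase digest, mixed at different ratios, so that the share of a cell type in a library is set by the sort and the mixing. The third library holds T cells of the mediastinal lymph node, pooled from mice of 2, 6, 12 and 18 months that carried 8 hashtag antibodies, whose ages were not used here. The labels describe the heart cells as non-cardiomyocytes and lymphocytes, yet 146 cells at 18 months and 688 at 2 months expressed the cardiomyocyte list, and endothelial cells and fibroblasts made up much of both libraries. With 1 library per age, age cannot be told apart from the animals, the sort or the library, and no test across animals was possible. How many animals stand behind each library is not stated in the labels.

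Homeostatic chemokines are made in resting tissue, where they hold and place leukocytes, unlike chemokines that are switched on by infection. CXCL12 binds CXCR4 and holds blood progenitors, B cells and neutrophils in the bone marrow. CXCL13 binds CXCR5 and draws B cells and follicular helper T cells into lymphoid follicles. CXCL16 is made as a transmembrane protein, is shed by proteases and binds CXCR6 on tissue T cells and innate lymphocytes. CXCL14 is made by epithelium and stroma in many resting tissues, and no receptor is assigned to it here.

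On the GRCm38 build, Cxcl12 (ENSMUSG00000061353) lies at chr6:117168535-117181367 on the plus strand and Cxcl13 (ENSMUSG00000023078) at chr5:95956951-95961068 on the plus strand. Cxcl14 (ENSMUSG00000021508) lies at chr13:56288643-56296551 on the minus strand and Cxcl16 (ENSMUSG00000018920) at chr11:70453983-70459984 on the minus strand. Cxcr4 (ENSMUSG00000045382) lies at chr1:128588199-128592293 on the minus strand. Cxcr5 (ENSMUSG00000047880) lies at chr9:44511787-44561877 on the minus strand and Cxcr6 (ENSMUSG00000048521) at chr9:123806475-123811760 on the plus strand. The start of Cxcl16 overlaps that of Zmynd15, on the other strand, by 552 bases, and the use of strand in the counting is not stated, so reads there could belong to either gene.

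RefSeq promoters, from 250 bases before to 50 after the gene start (build GRCm38.p6), were found for 5 of the 7 genes. Those of Cxcl12, Cxcl13, Cxcr4 and Cxcr6 are shown as a ligand and a receptor with promoters rich in G and C (Cxcl12, Cxcr4) and a ligand and a receptor with promoters poorer in them (Cxcl13, Cxcr6). They lie at chr6:117168285-117168584 on the plus strand, chr5:95956689-95956988 on the plus strand, chr1:128592250-128592549 on the minus strand and chr9:123806227-123806526 on the plus strand. Each reads 5′ to 3′, and capitals mark matches on either strand to TATAAA, the core promoter box bound by TBP, or to GGGCGG, the box bound by SP1.
Cxcl12: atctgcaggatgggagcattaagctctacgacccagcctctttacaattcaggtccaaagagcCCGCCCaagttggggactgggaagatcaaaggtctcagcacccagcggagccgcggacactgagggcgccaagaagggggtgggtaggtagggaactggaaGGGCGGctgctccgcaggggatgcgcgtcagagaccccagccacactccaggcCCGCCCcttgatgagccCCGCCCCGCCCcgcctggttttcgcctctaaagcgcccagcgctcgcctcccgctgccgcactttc
Cxcl13: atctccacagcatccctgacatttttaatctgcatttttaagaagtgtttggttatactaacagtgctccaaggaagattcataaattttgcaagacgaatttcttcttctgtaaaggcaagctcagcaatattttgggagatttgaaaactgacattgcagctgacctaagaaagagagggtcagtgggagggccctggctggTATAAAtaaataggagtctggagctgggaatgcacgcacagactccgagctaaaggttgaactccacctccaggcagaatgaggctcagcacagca
Cxcr4: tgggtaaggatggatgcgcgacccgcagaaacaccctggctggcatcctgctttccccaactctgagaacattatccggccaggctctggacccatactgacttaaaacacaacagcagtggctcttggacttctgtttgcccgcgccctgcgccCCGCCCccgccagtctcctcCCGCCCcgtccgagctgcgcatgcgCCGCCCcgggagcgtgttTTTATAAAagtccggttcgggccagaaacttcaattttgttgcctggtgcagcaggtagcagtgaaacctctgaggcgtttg
Cxcr6: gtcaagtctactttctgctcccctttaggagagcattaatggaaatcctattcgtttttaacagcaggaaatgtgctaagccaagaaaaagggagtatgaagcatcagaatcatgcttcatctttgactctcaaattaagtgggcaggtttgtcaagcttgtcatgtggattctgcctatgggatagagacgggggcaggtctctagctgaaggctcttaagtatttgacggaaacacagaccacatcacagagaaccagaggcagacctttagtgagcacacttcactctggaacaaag
The Cxcl12 promoter was 64.67% G or C with 20 CpG pairs and held GGGCGG. The Cxcl13 promoter was 44% G or C with 3 CpG pairs and held TATAAA. The Cxcr4 promoter was 59.33% G or C with 20 CpG pairs and held both motifs, with TATAAA matched on both strands in overlap. The Cxcr6 promoter was 44.33% G or C with 3 CpG pairs and held neither motif. That of Cxcl14, at chr13:56296502-56296801 on the minus strand, was 62.67% G or C with 22 CpG pairs and held GGGCGG. Over all 32851 promoters of the table the medians were 52.67% and 7 CpG pairs, 13.6% held TATAAA and 35.7% held GGGCGG. The motifs CACGTG (in 7.15% of all promoters) and TTCCNGGAA (in 1.15%) were in none of the 5 windows. A match describes the letters and is not evidence of a bound factor.

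After filtering, the 18-month heart library held 7828 cells with a median of 4374 UMIs, the 2-month library 10914 cells with a median of 8041, and the lymph node pool 10144 cells with a median of 2767. The 2 heart libraries shared 29 cell barcodes, and the lymph node pool shared 0 with the 18-month library and 3 with the 2-month library. Cells were clustered without the 7 genes, and a cluster was named from its markers, so each cell type name below means a cluster that looks like that type ("capillary endothelial-like", "B-like" and so on). Of 33 heart clusters, 8 stayed unnamed and held 12.31% of 18-month and 9.291% of 2-month cells. Levels are given as CPM, the UMIs of a gene per 1000000 UMIs of the class. A ratio is the log2 of the 18-month level over the 2-month level with its exact 95% interval, and all intervals cover counting error only. A gene counts as measured in a class with at least 20 UMIs over both libraries. It counts as higher or lower when the levels differed by at least 1.5-fold and the interval left out 0. Free RNA in the droplets was estimated for each class from markers of other lineages. Cells with Xist UMIs and cells with Y-linked UMIs were present in both libraries, and 2 hashtags in each split the cells further. In levels and ratios, cells with Xist UMIs are those without Y-linked UMIs, and cells with Y-linked UMIs those without Xist UMIs. Hashtag11 and Hashtag12 belonged to the 18-month library and Hashtag09 and Hashtag10 to the 2-month library, with no meaning given for them. They are parts of 1 library each and not replicates of an age. With 2 values per library a lack of overlap says little, and its share over all genes is not given here.

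Over 13 classes with at least 50 cells in each library, 54 pairs of gene and class were measured and 20 passed this rule, 15 of them higher and 5 lower at 18 months. Over all genes, 11.5% of the measured pairs of gene and class passed it, from 6.66% in arterial endothelium to 27.5% in B cells. Cxcr4 accounted for 7 of the 20, Cxcl12 and Cxcl13 for 3 each, Cxcl14, Cxcl16 and Cxcr6 for 2 each, and Cxcr5 for 1. In 4 of the 20 the estimated free RNA came to 50% or more of the level, and in 9, some of them the same, 5 cells held 50% or more of the UMIs, both read in the library with the higher level. The other 9 had neither limit in that library. They were Cxcr4 in B cells, neutrophils, macrophages, monocytes and arterial endothelium, Cxcl14 in fibroblasts and macrophages, and Cxcr5 and Cxcr6 in T cells.

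**Figure D1:**
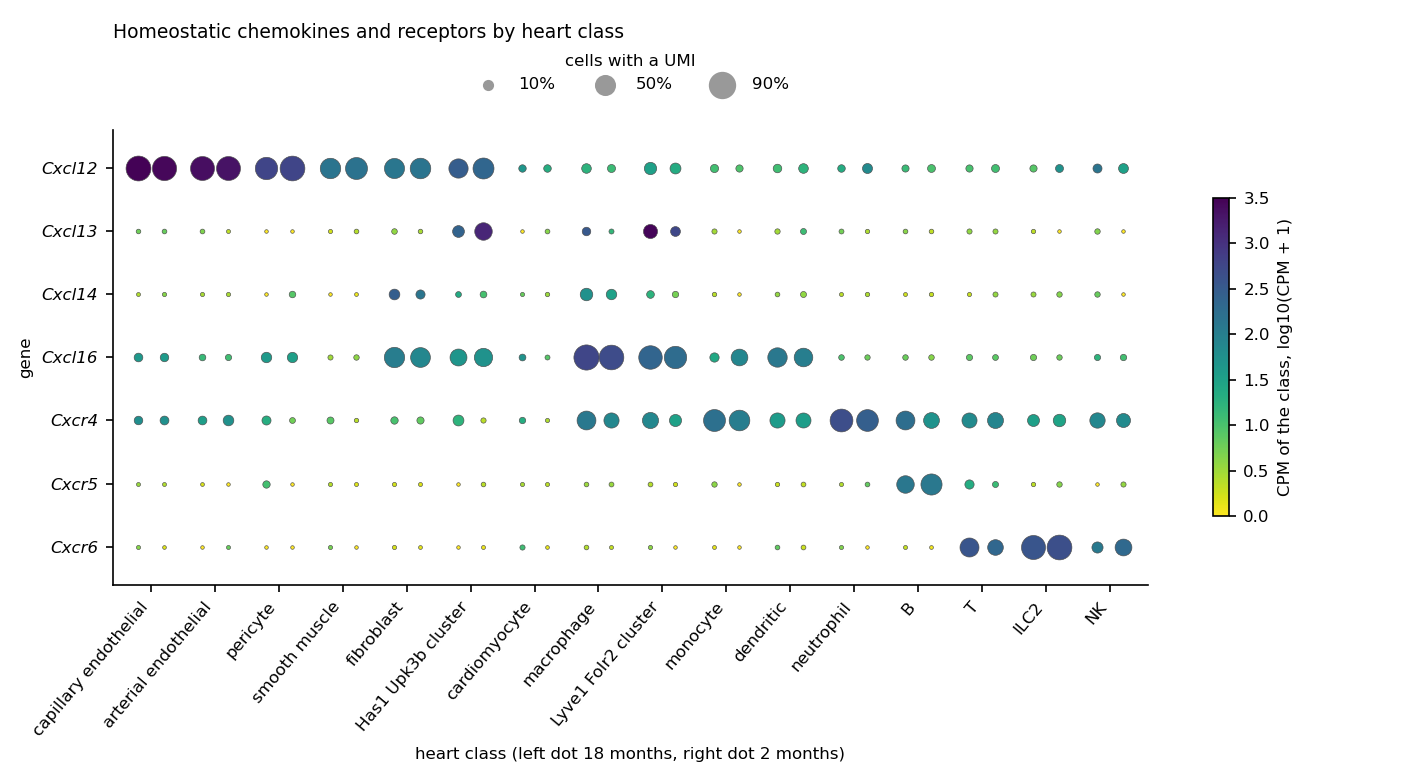
Level of each gene in heart cell classes, with the 18-month library as the left and the 2-month library as the right dot of a pair. Dot area is the percentage of cells with at least 1 UMI and colour is log10(CPM + 1); Cxcl12 is strongest in endothelium, Cxcl14 in fibroblasts, Cxcl16 in macrophages, Cxcr5 in B cells, Cxcr4 in neutrophils, and Cxcr6 in T cells and ILC2.

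Cxcl12 was highest in capillary and arterial endothelium. Capillary endothelial cells had 3022.1 CPM (14820 UMIs) at 18 months and 2732.0 CPM (16699 UMIs) at 2 months, and held 71.78% and 56.99% of all Cxcl12 UMIs of these libraries. Arterial endothelial cells had 2317.8 CPM at 18 months and 2119.9 CPM at 2 months, a log2 ratio of 0.13 (0.06 to 0.20). The capillary log2 ratio was 0.15 (0.11 to 0.18). Neither endothelial class passed the rule, although their intervals left out 0. An unnamed cluster led by Ccl21a, H19, Npr3 and Vwf, called the Ccl21a Npr3 cluster here, carried endocardial and lymphatic endothelial markers. It had only 70 CPM of Cxcl12 at 18 months (143 cells) and 14.52 CPM at 2 months (47 cells). At least 1 Cxcl12 UMI was seen in 87.48% of capillary cells at 18 months and 82.69% at 2 months, against 5.589% and 7.128% of B cells, where the level did not exceed the estimated free RNA.

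Within the capillary cells the level depended on the cluster. The cluster led by Kdr and Car4, the VEGF receptor and a carbonic anhydrase of capillaries, had the highest level, 4249.1 CPM at 18 months and 4007.5 CPM at 2 months. The cluster led by Ushbp1 and Mcf2l had 2868.2 CPM at 18 months and 2978.7 CPM at 2 months. Clusters led by Apln and Nrp2 and by Lhx6 and Aqp1 had the lowest levels. In the Apln Nrp2 cluster, whose leading gene encodes the peptide apelin, Cxcl12 stood at 1729.2 CPM at 18 months and 1167.8 CPM at 2 months, a log2 ratio of 0.57 (0.47 to 0.66). In the Lhx6 Aqp1 cluster it stood at 1753.3 CPM at 18 months and 1295.8 CPM at 2 months, a log2 ratio of 0.44 (0.32 to 0.56). The other capillary clusters had log2 ratios of 0.08 and -0.05. By hashtag, capillary Cxcl12 at 18 months was 3256.2 and 2719.2 CPM, in 215 and 306 of 1965 cells. At 2 months it was 2140.6 and 2269.5 CPM, in 186 and 133 of 2391 cells. Both 2-month values lay below the 2732.0 CPM of the whole class, so the few tagged cells do not stand for it. Cells with Xist UMIs had 3191.5 CPM at 18 months and 3163.9 CPM at 2 months, while cells with Y-linked UMIs had 2976.9 CPM at 18 months and 2393.7 CPM at 2 months.

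Outside the endothelium, pericytes, the contractile cells around capillaries, had 599.8 CPM at 18 months (50 cells) and 610.7 CPM at 2 months (161 cells), a log2 ratio of -0.03. The unnamed cluster led by Has1, described below with Cxcl13, had 298.7 CPM at 18 months (33 cells) and 230.3 CPM at 2 months (234 cells). NK cells had 140.7 CPM at 18 months (81 cells) and 31.81 CPM at 2 months (49 cells). Both had too few cells for a ratio. Smooth muscle cells had 139.9 CPM at 18 months and 151.2 CPM at 2 months. Fibroblasts had 131.9 CPM at 18 months and 142.4 CPM at 2 months, with UMIs in 56.17% and 59.01% of cells. At 2 months, where they were many, they held 5728 of the 29303 Cxcl12 UMIs of the library. The fibroblast cluster led by Igfbp3 and Inmt had the same level in both libraries within counting error, 238.2 CPM at 18 months and 240.3 CPM at 2 months. Cxcl12 did not differ by the rule in mural cells and fibroblasts, where its level was below that of capillary and arterial endothelium. Neither pericytes (0 of 2 measured genes past the rule, where 6.73% of all genes passed) nor capillary cells (0 of 6, against 9.15%) had any of the 7 genes past it.

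Cxcl12 passed the rule in 3 classes that hold little of it. Neutrophils had 20.89 CPM at 18 months and 68.89 CPM at 2 months (log2 ratio -1.72), but 5 cells held 62.2% of the 2-month UMIs. ILC2, the innate counterpart of type 2 helper T cells, had 7.348 CPM at 18 months and 51.11 CPM at 2 months (log2 ratio -2.80), and 5 cells held 96.67% of the 2-month UMIs. Cardiomyocytes had 44.19 CPM at 18 months and 20.59 CPM at 2 months (log2 ratio 1.10), where the free RNA estimate equalled 123.8% and 103% of the level. Without the 5 richest cells of each library, the Cxcl12 ratio in neutrophils was -0.80, the Cxcl12 ratio in ILC2 was -0.54, so that the call was lost, and the Cxcl12 ratio in cardiomyocytes was -0.83, with the direction turned round.

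**Figure D2:**
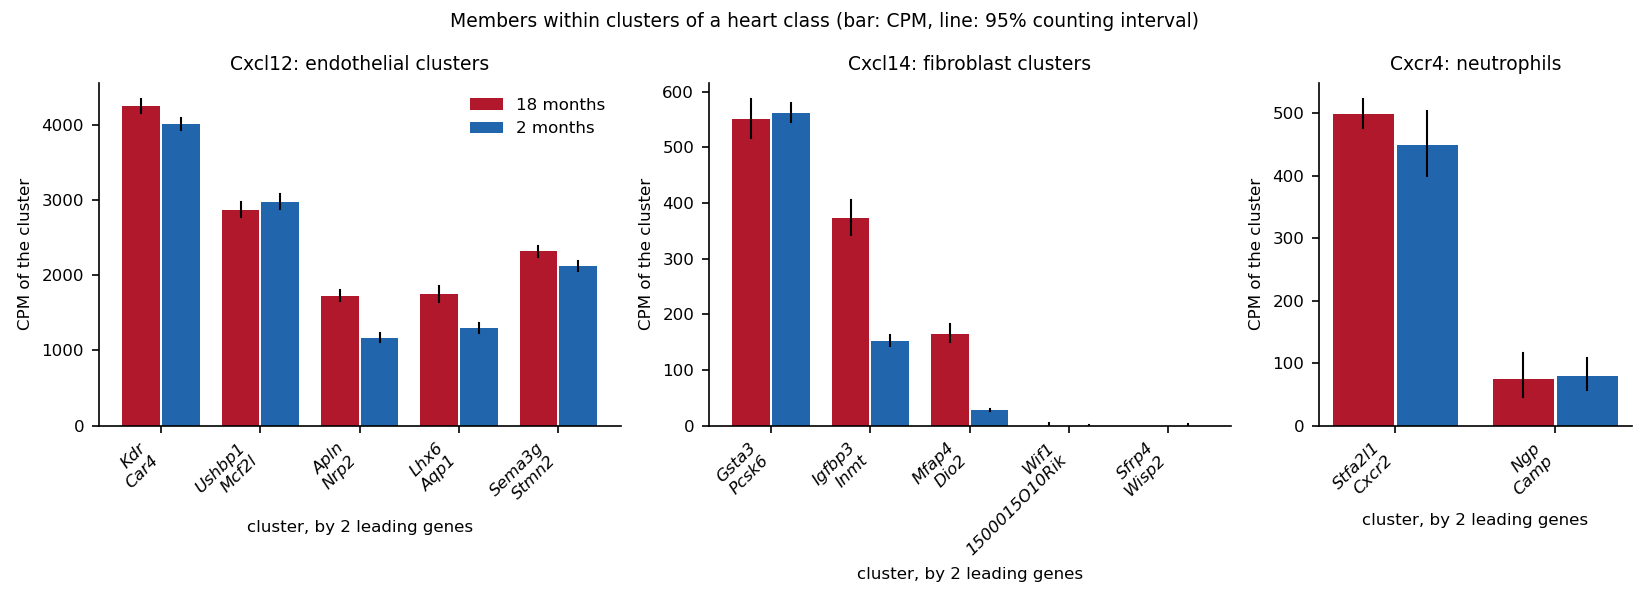
CPM of Cxcl12 in 5 endothelial clusters, Cxcl14 in 5 fibroblast clusters and Cxcr4 in 2 neutrophil clusters, each named by its 2 leading genes, with 18 months left (red) and 2 months right (blue) and lines for the exact 95% counting interval. Cxcl12 is highest in the Kdr Car4 cluster (4249.1 CPM at 18 months and 4007.5 CPM at 2 months), and of the Cxcl14 clusters with UMIs at both ages the Mfap4 Dio2 cluster has the largest ratio of the ages (165.4 CPM at 18 months and 27.88 CPM at 2 months).

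Cxcr4, the receptor of CXCL12, was spread over leukocytes and endothelium, and it was higher at 18 months in B cells, monocytes, macrophages and neutrophils. Neutrophils had the highest level of any class with 50 cells in both libraries, 469.8 CPM at 18 months and 285.6 CPM at 2 months, a log2 ratio of 0.72 (0.55 to 0.89). Both 18-month hashtags (439.8 and 525.4 CPM) lay above both 2-month hashtags (282.1 and 277.3 CPM). The clusters of the class differed in level and in size. In the cluster led by Stfa2l1 and Cxcr2, genes of mature neutrophils, Cxcr4 was 499.1 CPM at 18 months (941 cells) and 449.4 CPM at 2 months (170 cells), a log2 ratio of 0.15 (-0.03 to 0.33), so the call was lost there. It was also lost, at 0.35, with cells thinned to 1000 UMIs and, at 0.48, under the authors' filter. In the cluster led by Ngp and Camp, granule genes of immature neutrophils, it was 74.81 CPM at 18 months (17 cells) and 79.66 CPM at 2 months (43 cells). Of the 4 genes measured in neutrophils, Cxcl12 and Cxcr4 passed the rule, where 18.7% of all genes did.

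B cells had 173.7 CPM of Cxcr4 at 18 months and 52.16 CPM at 2 months, a log2 ratio of 1.74 (1.58 to 1.89). UMIs were found in 49.4% of B cells at 18 months and 34.19% at 2 months, and after each cell was thinned to 1000 UMIs in 15.63% and 7.772%. By comparison, 5.298% of smooth muscle cells at 18 months and 0.984% at 2 months had a Cxcr4 UMI. The B cell libraries were uneven in depth, with medians of 4351 UMIs per cell at 18 months and 9214 at 2 months, and the median log2 ratio of all genes measured in B cells was 0.25. Relative to that median the Cxcr4 ratio in B cells was 1.48 on the log2 scale. The make-up of the B cell class also differed. Its plasma cell markers summed to 1348.6 CPM at 18 months and 7348.0 CPM at 2 months. Its erythroid markers summed to 3459.1 CPM at 18 months and 16.84 CPM at 2 months. The part of this in the B cell ratios was not tested. The rule was passed by 2 of 5 measured genes in B cells, Cxcr4 and Cxcl13, and by 27.5% of all genes there. The 2-month B cells came almost wholly from Hashtag09, with 49.86 CPM in 884 cells, while the 66 cells of Hashtag10 had 122.2 CPM. The 18-month hashtags had 146.1 and 192.5 CPM, above both. Among B cells with Y-linked UMIs Cxcr4 was 187.9 CPM at 18 months and 44.82 CPM at 2 months. Among those with Xist UMIs the order turned round, 127.6 CPM in 173 cells at 18 months and 156.5 CPM in 68 cells at 2 months.

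In macrophages Cxcr4 was 124.1 CPM at 18 months and 75.04 CPM at 2 months, a log2 ratio of 0.73 (0.52 to 0.93). The 18-month hashtags (116.3 and 136.3 CPM) lay above the 2-month hashtags (82.63 and 74.5 CPM), and the order held in cells with Xist UMIs (142.5 CPM at 18 months and 93.91 CPM at 2 months) and with Y-linked UMIs (95.3 CPM at 18 months and 70.65 CPM at 2 months). The direction was thus the same in each of these splits, although the Cxcr4 ratio in macrophages did not reach 1.5-fold in cells with Y-linked UMIs (0.43) or between Hashtag11 and Hashtag09 (0.49). Monocytes had 165.5 CPM at 18 months (293 cells) and 106.2 CPM at 2 months (52 cells), a log2 ratio of 0.64 (0.29 to 1.01). Of 3 measured genes in monocytes 2 passed, where 10.5% of all genes did. With cells thinned to 1000 UMIs, the share of monocytes with a Cxcr4 UMI was 18.15% at 18 months and 15.38% at 2 months, against 67.24% and 59.62% before thinning, and the log2 ratio of the thinned level was 0.05, so that the call was lost.

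Arterial endothelium was the only class of the 13 in which Cxcr4 was lower by the rule, at 34.24 CPM at 18 months and 54.97 CPM at 2 months (log2 ratio -0.68, -1.20 to -0.18). It was 1 of 3 measured genes past the rule there, where 6.66% of all genes passed. Capillary endothelium, with 59.54 CPM at 18 months and 56.44 CPM at 2 months, did not pass the rule, and its Apln Nrp2 cluster was highest at 104.3 CPM at 18 months and 84.97 CPM at 2 months. The arterial order held in cells with Xist UMIs (14.35 CPM at 18 months and 35.84 CPM at 2 months) and in cells with Y-linked UMIs (46.13 CPM at 18 months and 74.44 CPM at 2 months).

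T cells had 68.34 CPM of Cxcr4 at 18 months and 78.68 CPM at 2 months, NK cells 74.93 CPM at 18 months and 68.92 CPM at 2 months, dendritic cells 38.13 CPM at 18 months and 36.18 CPM at 2 months, and ILC2 33.06 CPM at 18 months and 28.96 CPM at 2 months. None of these differed by the rule where a ratio was made, and NK cells (81 at 18 months and 49 at 2 months) had too few cells for one. Mast cells had 395.5 CPM in 35 cells at 18 months, with no comparison. Fibroblasts (9.356 CPM at 18 months and 6.167 CPM at 2 months) and smooth muscle cells (7.14 CPM at 18 months and 1.342 CPM at 2 months) passed the rule at levels of which free RNA could make up 50% or more in at least 1 library. In smooth muscle this was 1 of 3 measured genes, where 7.64% of all genes passed.

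**Figure D3:**
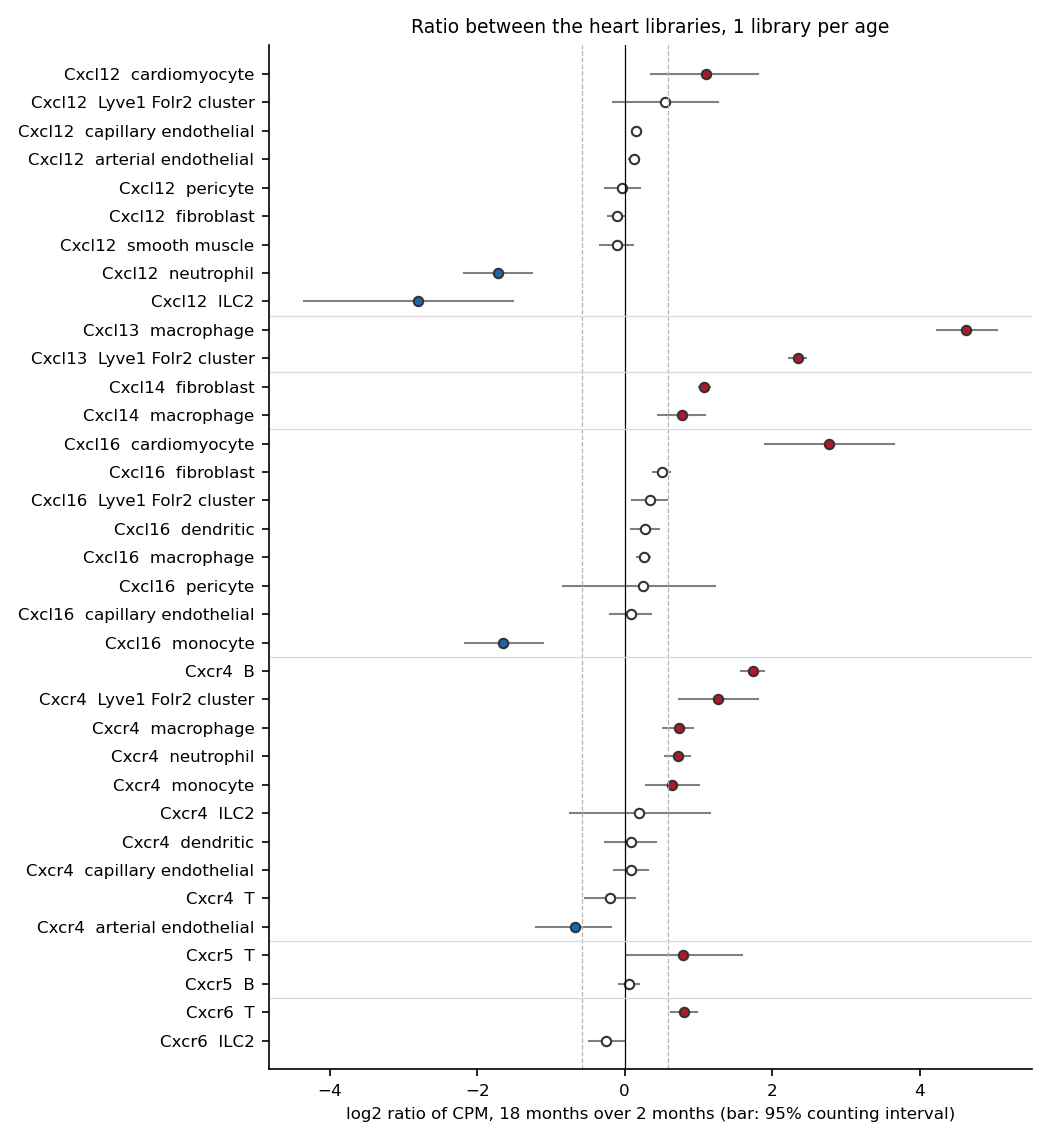
Log2 ratio of the 18-month over the 2-month library for gene and class pairs that were measured and reached 20 CPM in a library, with exact 95% counting intervals; filled points passed the rule and dashed lines mark 1.5-fold. Of the classes drawn, Cxcl13 in macrophages has the largest ratio, 4.62, and the Cxcl12 ratios of endothelium lie close to 0.

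Cxcl13 came from few cells, and the cells differed between the libraries. At 18 months the main source was an unnamed cluster led by Alox15, Saa3, Serpinb2, Folr2 and Lyve1, called the Lyve1 Folr2 cluster here, in which all 8 macrophage markers were raised but none led it. It had 2861.6 CPM (3919 UMIs in 134 cells) at 18 months and 562.6 CPM (765 UMIs in 124 cells) at 2 months, a log2 ratio of 2.35 (2.23 to 2.46). It held 51.91% of the 18-month and 12.46% of the 2-month Cxcl13 UMIs of all cells. Only 36 of its cells at 18 months and 15 at 2 months had any Cxcl13 UMI, 7 and 3 of them had 100 or more, and the richest cell had 1916 at 18 months and 274 at 2 months. The 5 richest cells held 73.46% of the 18-month and 93.73% of the 2-month UMIs, so each level rests on a handful of cells.

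The hashtags of the Lyve1 Folr2 cluster overlapped for Cxcl13. At 18 months Hashtag11 had 1044.3 CPM and Hashtag12 had 3997.7 CPM, and at 2 months Hashtag09 had 1448.2 CPM in 31 cells and Hashtag10 had 8.971 CPM in 89 cells. The age order therefore turned round between Hashtag11 and Hashtag09, with a log2 ratio of -0.47, and the log2 ratio was 4.37 without the 5 richest cells of each library and 6.46 under the authors' filter. Cells with Xist UMIs had 5701.4 CPM at 18 months and 149.3 CPM at 2 months, and cells with Y-linked UMIs 1643.3 CPM at 18 months and 690.4 CPM at 2 months. Of 5 measured genes in this cluster, 3 passed the rule (Cxcl13, Cxcl14 and Cxcr4), where 10.6% of all genes did.

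Another unnamed cluster, led by Has1, Sult1e1, Ccl11, Upk3b and Krt19, had all 6 epicardial and all 7 Pi16 fibroblast markers raised. It had 250.5 CPM of Cxcl13 at 18 months (109 UMIs, in 6 of 33 cells), too few cells for a ratio, and 1314.0 CPM at 2 months (5101 UMIs, in 99 of 234 cells). It was the main source at 2 months, with 1.444% of the Cxcl13 UMIs of the 18-month library and 83.09% of those of the 2-month library. The epicardium is the outer cell layer of the heart, and its share of a digest depends on the dissection and the sort. Of the 234 cells at 2 months, 199 had Y-linked UMIs, with or without Xist UMIs.

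Macrophages named by their markers (Ms4a7, Cd207 and C1q genes led them) had the largest Cxcl13 ratio of the named classes, 345.9 CPM at 18 months (1778 UMIs) and 14.04 CPM at 2 months (52 UMIs), log2 4.62 (4.23 to 5.05). UMIs were found in 46 of 533 cells (8.63%) at 18 months and 8 of 441 (1.814%) at 2 months, against 1.221% and 1.38% of capillary cells, where the gene was near its free RNA estimate. The 5 richest cells held 69.57% of the 18-month and 94.23% of the 2-month UMIs. By hashtag the levels were 309 and 245.7 CPM at 18 months and 7.511 and 17.02 CPM at 2 months. Over 16 other settings the log2 ratio ranged from 2.64, with cells thinned to 1000 UMIs, to 7.23, under the authors' filter. Cells with Xist UMIs had 444.4 CPM at 18 months and 0 at 2 months, and cells with Y-linked UMIs had 343.3 CPM at 18 months and 33.94 CPM at 2 months. Macrophages passed the rule for 3 of 6 measured genes, Cxcl13, Cxcl14 and Cxcr4, where 7.85% of all genes passed.

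Clusters that carried macrophage markers next to those of a lymphocyte had the same direction. A cluster with T cell and macrophage markers, which had a median of 19686 UMIs per cell at 18 months and 18725 at 2 months, had 186.1 CPM of Cxcl13 at 18 months and 1.192 CPM at 2 months, log2 7.29 (5.93 to 9.17). A cluster with B cell and macrophage markers had 184 CPM at 18 months and 0.6589 CPM at 2 months, log2 8.13 (6.90 to 9.75). At 18 months, 175 of the 223 cells of the T cell and macrophage cluster had Xist UMIs and 162 had Y-linked UMIs. Of the 264 cells of the B cell and macrophage cluster 140 and 192 did, so in each cluster some cells held both. Whether these are cell pairs that repeat the macrophage signal was not tested. In dendritic cells Cxcl13 was lower at 18 months, 2.085 CPM against 11.47 CPM at 2 months, but 5 cells held 92.31% of the 2-month UMIs. Dendritic cells passed the rule for 2 of 6 measured genes, Cxcl13 and Cxcr6, where 14.5% of all genes passed. In B cells Cxcl13 was 3.213 CPM at 18 months and 1.149 CPM at 2 months, with a free RNA estimate of 146.4% of the level at 18 months.

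Cxcr5, the receptor of CXCL13, was a B cell gene in the heart. B cells held 60.41% of its UMIs at 18 months and 61.62% at 2 months, with 129.3 CPM at 18 months and 124.1 CPM at 2 months, a log2 ratio of 0.06 (-0.08 to 0.20). Relative to the median of all genes in B cells the log2 ratio was -0.19, so its sign depends on the scaling. UMIs were found in 42.32% of B cells at 18 months and 62.4% at 2 months, and after thinning in 11.82% and 10.67%, against 0.458% and 0.4182% of capillary cells. By hashtag the level was 129 and 133.1 CPM at 18 months and 130.9 and 92.38 CPM at 2 months, which overlap. The unthinned share was lower at 18 months, where B cells had fewer UMIs each, while the level did not differ by the rule.

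T cells carried a little Cxcr5, 21.03 CPM at 18 months (44 UMIs in 31 cells) and 12.15 CPM at 2 months (23 UMIs in 9 cells), a log2 ratio of 0.79 (0.03 to 1.59). At 18 months 5 cells held 27.27% of the UMIs, and at 2 months 82.61%. After these values were seen, T cells were split by their own receptor and coreceptor UMIs. Cells with Cd8 UMIs and no Trdc, the constant gene of the delta chain, held 34 of the 44 UMIs at 18 months and 10 of the 23 at 2 months, at 31.91 CPM and 13.91 CPM. Cells with Cd4 UMIs had the other direction, 10.27 CPM at 18 months (4 UMIs) and 18.06 CPM at 2 months (11 UMIs). In T cells 2 of 5 measured genes passed the rule, Cxcr5 and Cxcr6, where 9.42% of all genes did.

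**Figure D4:**
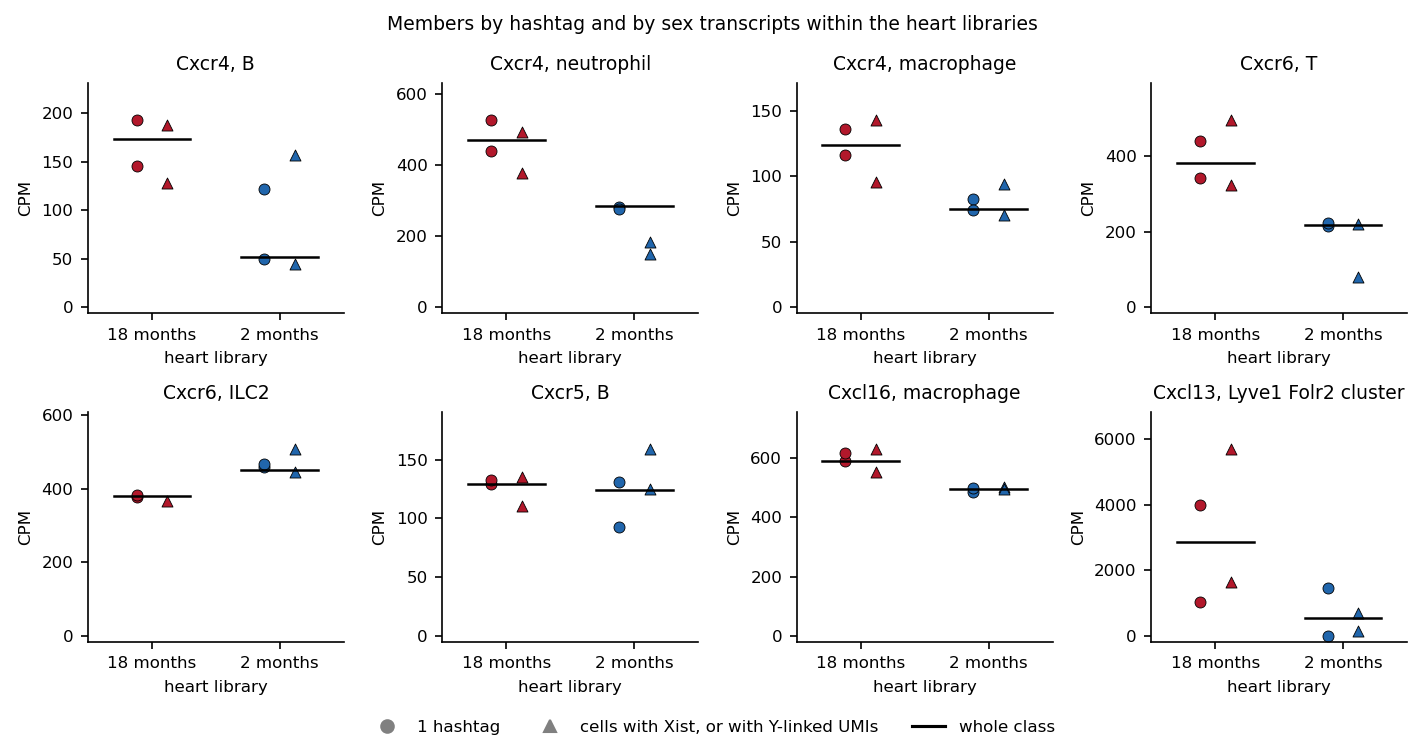
CPM by hashtag (circles) and by cells with Xist or with Y-linked UMIs (triangles) within each heart library, with a line for the whole class, for 8 pairs of gene and class. The hashtags of the libraries do not overlap for Cxcr4 in B cells, neutrophils and macrophages, for Cxcr6 in T cells and ILC2 and for Cxcl16 in macrophages, and overlap for Cxcr5 in B cells and Cxcl13 in the Lyve1 Folr2 cluster.

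Cxcl14 was made by fibroblasts, which held 77.51% of its UMIs at 18 months and 93.18% at 2 months. It was higher at 18 months, 288.7 CPM against 136.1 CPM at 2 months, a log2 ratio of 1.08 (1.01 to 1.16). UMIs were found in 82 of 559 fibroblasts (14.67%) at 18 months and 308 of 3018 (10.21%) at 2 months, against 0.4071% and 0.7528% of capillary cells. The 5 richest cells held 34.92% of the 18-month and 12.58% of the 2-month UMIs. Cells with Xist UMIs (237.8 CPM at 18 months and 125.6 CPM at 2 months) and with Y-linked UMIs (288.8 CPM at 18 months and 125.5 CPM at 2 months) gave the same order. Fibroblasts passed the rule for 2 of 6 measured genes, Cxcl14 and Cxcr4, where 9.92% of all genes passed.

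The fibroblast clusters differed. In the cluster led by Gsta3 and Pcsk6, where Cxcl14 was highest, the level was 550.6 CPM at 18 months and 561.8 CPM at 2 months, with UMIs in 30.91% and 29.52% of cells. The ages did not differ there (log2 ratio -0.03). The cluster led by Igfbp3 and Inmt had 373 CPM at 18 months and 152.8 CPM at 2 months, with 79.4% and 46.07% of the UMIs in 5 cells. The cluster led by Mfap4 and Dio2, a matrix protein and a thyroid hormone deiodinase, had 165.4 CPM at 18 months and 27.88 CPM at 2 months, with 95.7% and 42.14% in 5 cells. Both of these clusters were higher at 18 months, and in each of them 5 cells then held most of the UMIs. With every cluster weighted alike the fibroblast log2 ratio was 0.55, and under the authors' filter 0.57, both short of 1.5-fold. The Wif1 cluster, named for a secreted Wnt inhibitor, had no UMI at 18 months and 0.1368 CPM at 2 months, and 121 cells of an Sfrp4 cluster at 2 months had 0.

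Macrophages had 53.7 CPM of Cxcl14 at 18 months and 31.58 CPM at 2 months, a log2 ratio of 0.77 (0.45 to 1.09), with UMIs in 20.83% and 14.06% of cells. Hashtags had 47.09 and 61.07 CPM at 18 months and 20.39 and 37.06 CPM at 2 months. The macrophage signal was thus lower than in fibroblasts but spread over more of the cells. The Cxcl14 ratio in macrophages was short of 1.5-fold, at 0.32 in cells with Xist UMIs, 0.47 with cells thinned to 1000 UMIs, 0.36 at resolution 2 and 0.35 between Hashtag11 and Hashtag10, and the call was lost in each. The Lyve1 Folr2 cluster had 16.79 CPM at 18 months and 4.413 CPM at 2 months.

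Cxcl16 had its highest level in macrophages. Macrophages had 589.3 CPM at 18 months and 493.2 CPM at 2 months, with UMIs in 89.49% and 85.71% of cells, and a log2 ratio of 0.26 (0.17 to 0.34) that did not reach 1.5-fold. Hashtags had 588.2 and 614.7 CPM at 18 months and 485 and 498 CPM at 2 months. Smooth muscle cells, by comparison, had a Cxcl16 UMI in 1.987% of cells at 18 months and 2.46% at 2 months. Zmynd15, the overlapping gene, was at 107 CPM at 18 months and 49.4 CPM at 2 months in macrophages, and how much of the Cxcl16 signal it takes or gives was not tested.

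Other sources of Cxcl16 were lower. The Lyve1 Folr2 cluster had 235.1 CPM at 18 months and 186.1 CPM at 2 months, and dendritic cells 125.7 CPM at 18 months and 103.5 CPM at 2 months. Past the rule were 2 unnamed clusters, for which the share of all genes past it is not given here. The cluster with B cell and macrophage markers had 297.7 CPM at 18 months and 157.6 CPM at 2 months, log2 0.92 (0.80 to 1.03). Whether it holds cell pairs that repeat the macrophage signal was not tested. A cycling cluster led by Mki67 and Top2a had 191.2 CPM at 18 months and 101.4 CPM at 2 months, log2 0.92 (0.67 to 1.16). The Ccl21a Npr3 cluster had 180.2 CPM at 18 months (143 cells) and 75.49 CPM at 2 months (47 cells), too few cells for a ratio. Fibroblasts had 106.7 CPM at 18 months and 75.22 CPM at 2 months, a log2 ratio of 0.50 (0.38 to 0.62) that stayed below 1.5-fold. Since fibroblasts were many at 2 months, they held 35.91% of the Cxcl16 UMIs of that library, against 21.69% in its macrophages. Capillary cells (42.01 CPM at 18 months and 39.76 CPM at 2 months) and pericytes (39.99 CPM at 18 months and 33.67 CPM at 2 months) had low levels that did not differ by the rule.

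Cxcl16 was lower by the rule in monocytes, 24.57 CPM at 18 months (72 UMIs) and 76.86 CPM at 2 months (55 UMIs), a log2 ratio of -1.65. Monocytes with Y-linked UMIs had 12.42 CPM at 18 months and 99.87 CPM at 2 months, while those with Xist UMIs had 63.33 CPM at 18 months and 35.37 CPM at 2 months, so the direction turned round. In cardiomyocytes it was higher, 49.72 CPM at 18 months and 7.306 CPM at 2 months, but 5 cells held 92.59% of the 18-month UMIs. Both genes measured in cardiomyocytes, Cxcl12 and Cxcl16, passed the rule (2 of 2), where 10.9% of all genes did.

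Cxcr6, the receptor of CXCL16, marked T cells and ILC2, and was higher in T cells at 18 months. T cells had 380.9 CPM at 18 months and 217.6 CPM at 2 months, a log2 ratio of 0.81 (0.63 to 0.98), with UMIs in 50.17% of 297 cells and 33.33% of 261 cells. After thinning the shares were 25.17% at 18 months and 15.06% at 2 months, against unthinned shares of 0.5598% and 0.1255% in capillary cells. Hashtags had 438.9 and 341 CPM at 18 months and 213.8 and 221.7 CPM at 2 months. T cells with Xist UMIs had 492.7 CPM at 18 months and 80.07 CPM at 2 months, and T cells with Y-linked UMIs had 322.2 CPM at 18 months and 219.1 CPM at 2 months.

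The split of T cells made after the values were seen showed Cxcr6 highest in cells with Trdc UMIs, 1210.9 CPM at 18 months and 807.6 CPM at 2 months. These made up 16.16% of T cells at 18 months (48 cells) and 8.812% at 2 months (23 cells). Cells with Cd4 UMIs had 279.9 CPM at 18 months (59 cells) and 80.46 CPM at 2 months (85 cells). Cells with Cd8 UMIs had 173.6 CPM at 18 months (140 cells) and 153 CPM at 2 months (87 cells), and the rest 326 CPM at 18 months and 297.7 CPM at 2 months. A larger share of Trdc cells thus moved together with the T cell level of Cxcr6, and its part in the ratio was not tested.

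ILC2 had 379.6 CPM of Cxcr6 at 18 months and 451.5 CPM at 2 months, a log2 ratio of -0.25 (-0.49 to -0.01), with UMIs in 81.13% of 106 cells and 86.59% of 82 cells. Hashtags had 378.1 and 384 CPM at 18 months and 460.1 and 467 CPM at 2 months. This difference left the interval clear of 0 but did not reach 1.5-fold. The rule was passed in ILC2 by 1 of 3 measured genes, Cxcl12, where 9.84% of all genes passed. NK cells had 122.4 CPM at 18 months and 209.4 CPM at 2 months, with no ratio made. Dendritic cells passed the rule at 6.256 CPM at 18 months and 0.8825 CPM at 2 months, where 5 cells held 100% of the UMIs of a library.

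In the lymph node pool the receptors were described over 9 states, named from their markers in the same way. Cells of unnamed clusters are in none of these states. The largest unnamed clusters held 1075 cells (10.6% of the pool, median 893 UMIs) and 735 cells (7.246%, median 997 UMIs). The pool was made with another chemistry than the heart libraries, so levels are not compared between the tissues. Each hashtag sample with enough cells of a state gave 1 value, and 5 to 8 hashtag samples did so for most states. Since their ages were not used, these values show the spread over samples and no age order.

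Cxcr5 was highest in follicular helper T-like cells, which help B cells in germinal centres. Their pooled level was 158.5 CPM, and over 8 hashtag samples it ranged from 53.12 to 205.8 CPM with a median of 121.6. UMIs were found in 30.54% of 789 cells, against 2.791% of myeloid-like cells. B-like cells followed at 93.18 CPM (66.88 to 148.2, median 98.28), then Gzmk T-like cells at 87.81 CPM (58.94 to 97.61 over 5 samples, median 75.08). Regulatory T-like cells, which restrain other T cells, had 64.59 CPM (32.15 to 107.1, median 59), and memory CD4 T-like cells 39.84 CPM (19.95 to 52.05 over 7 samples, median 40.84).

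Follicular helper cells lay above regulatory cells in 8 of 8 hashtag samples and above Gzmk T cells in 5 of 5. They lay above B cells in only 5 of 8, so these neighbours were not told apart, and Gzmk T cells lay above regulatory cells in 3 of 5. Regulatory cells lay above virtual memory CD8 cells in 8 of 8. The CD8 states were low, with 20.54 CPM in naive-like CD8 T cells (15.21 to 31.7, median 20.13) and 15.86 CPM in virtual memory CD8 T cells (9.662 to 44.7, median 14.86). Gzmk T cells, 64.67% of which had a Cd8 UMI and 18.57% a Cd4 UMI, had a higher pooled level than these CD8 states. Of 1104 Gzmk T cells, 659 came from Hashtag7.

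Virtual memory CD8 T cells, which gain a memory look without meeting foreign antigen, had 226.2 CPM of Cxcr6 (173.9 to 295.1 over 8 samples, median 218.8) and UMIs in 55.77% of cells. They lay above naive-like CD8 cells (115.6 CPM, 69.47 to 143.5, median 112.6) in 8 of 8 samples. Interferon-stimulated T cells had 118.5 CPM pooled, with 66.08 and 153.5 CPM in 2 samples. Memory CD4 cells had 103.2 CPM (45.48 to 239.4, median 110.8) and Gzmk T cells 78.39 CPM (54.45 to 174.1, median 90.54), ranges that overlap. Follicular helper cells had 42.89 CPM (20.01 to 93.25, median 57.47). Regulatory cells had 12.86 CPM (3.583 to 35.36, median 14.94), below virtual memory CD8 cells in 8 of 8 and memory CD4 cells in 7 of 7 samples, and B-like cells had 18.26 CPM.

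Cxcr4 varied less between the named lymph node states. Outside them, an unnamed cluster of 219 cells with a median of 907 UMIs had a higher level, 136 CPM (92.44 to 193.1) from 31 UMIs. Follicular helper cells had 76.21 CPM (23.31 to 97.8, median 65.13) and regulatory cells 52.25 CPM (22.07 to 71.65, median 54.26), the first above the second in 6 of 8 samples. Follicular helper cells lay above memory CD4 cells (24.82 CPM, 19.95 to 39.18, median 24.62) in 7 of 7 and above Gzmk T cells (34.84 CPM, 21.43 to 73.12, median 33.3) in 5 of 5. B-like cells had 43.62 CPM, virtual memory CD8 cells 35.41 CPM, naive-like CD8 cells 31.96 CPM and interferon-stimulated cells 30.42 CPM. The sample ranges of these last states overlap. Over the 5902 cells with a productive alpha contig (58.18% of the pool) the levels were 37.41 CPM of Cxcr4, 49.41 CPM of Cxcr5 and 110.1 CPM of Cxcr6.

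**Figure D5:**
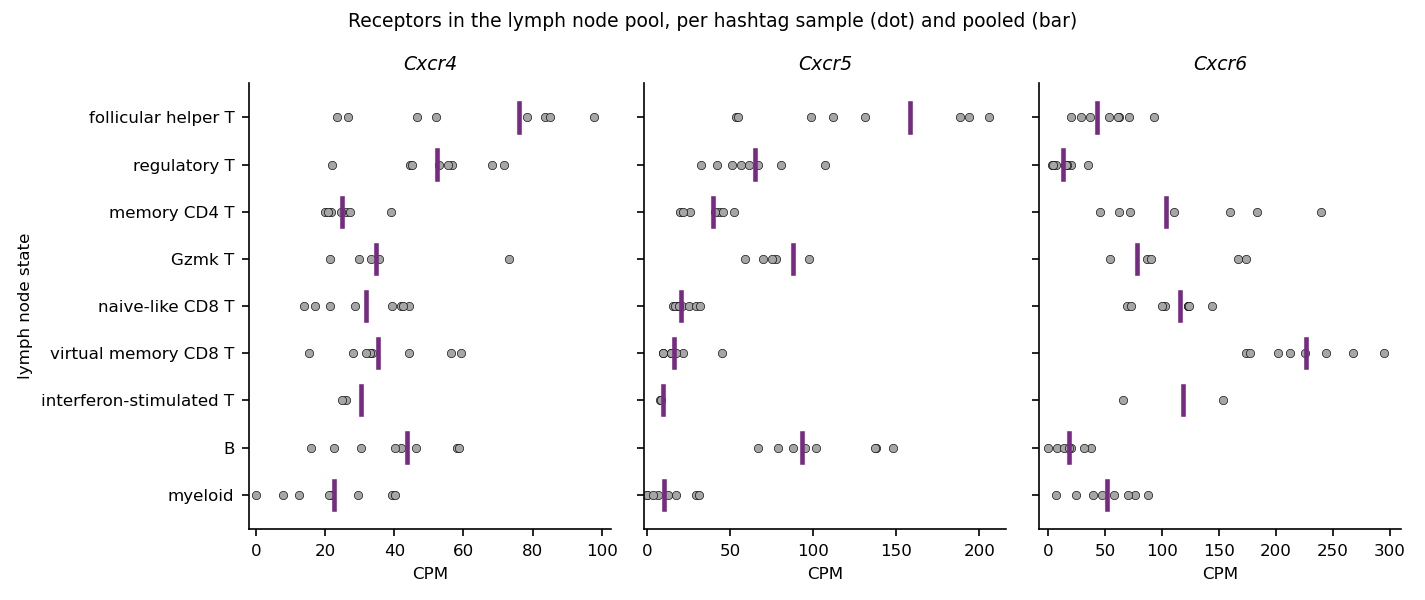
CPM of Cxcr4, Cxcr5 and Cxcr6 in 9 lymph node states, with a grey dot for each hashtag sample and a purple bar for all cells of the state. Of the states drawn, Cxcr5 is highest in follicular helper T cells at 158.5 CPM and Cxcr6 in virtual memory CD8 T cells at 226.2 CPM.

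The ligands had few UMIs in the lymph node pool, 5 UMIs of Cxcl12 and 79 of Cxcl13. Cxcl16 had 585 UMIs, of which 412 (70.43%) lay in a cluster of 122 cells led by Fscn1 and Ccl22, genes of mature dendritic cells, at 882 CPM. Zmynd15 stood at 708.6 CPM in the same cluster.

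The genes most like each of the 7 over the heart were sought among 7858 genes by Pearson r of log2(CPM + 1). The 28 points were the named classes with at least 50 cells in a library, each library a point. Unnamed clusters were not among them, so the main Cxcl13 sources, the Lyve1 Folr2 cluster and the cluster led by Has1, were left out. The r values describe shared distribution over the named classes only. Cxcl12 was closest to Ebf3, Tmem204 and Ptprg (r 0.97 each). Cxcr6 was closest to Bcl11b (0.97), Skap1 (0.96) and Il7r (0.95), and Cxcr5 to Blk (0.89), Ly6d and Cd79a (0.86 each). Cxcr4 was closest to Grk2 and Kdm7a (0.94 each) and Slfn2 (0.92). Grk2 encodes a kinase that desensitises receptors of this kind. Cxcl13 was closest to Vsig4 (0.85), H2-M2 (0.83) and Zmynd15 (0.81), Cxcl14 to Igf1 (0.85), Tmem119 and Ltbp2 (0.82 each), and Cxcl16 to Arhgap22 (0.87), Rab7b (0.84) and C1qb (0.83). Over 10 lymph node states and 4537 genes, Cxcr5 was closest to Heg1 (0.90), Hmces and A630001G21Rik (0.88 each), and Cxcr4 to Hnrnpdl (0.92), Cherp (0.89) and Nxt1 (0.88). The points share libraries, and the libraries differ in depth.

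A list of 39 genes around these chemokines was read in the same way: atypical receptors and other resting chemokines, proteases, the lymphotoxin route, the MIF and CD74 axis, and receptor signalling. In macrophages 3 of 28 measured genes were higher and 3 lower, with a median log2 ratio of 0.03 against -0.01 over all genes, of which 3.97% were higher and 3.876% lower. Rgs1, which damps signals from chemokine receptors, had 462.3 CPM at 18 months and 197.3 CPM at 2 months (log2 ratio 1.23). Tnfsf13b, the B cell survival factor BAFF, had 101.6 CPM at 18 months and 43.46 CPM at 2 months (log2 ratio 1.22). In B cells 9 of 29 were higher and 2 lower, with a median of 0.32 against 0.25 over all genes, of which 21.37% were higher and 6.172% lower. They included Klf2, a regulator of lymphocyte traffic, at 1450.6 CPM at 18 months and 714 CPM at 2 months, Ccr7 at 430.1 CPM at 18 months and 263.9 CPM at 2 months, and S1pr1, the exit receptor, at 140.8 CPM at 18 months and 84.8 CPM at 2 months. Lta, a lymphotoxin that induces Cxcl13 in lymphoid tissue, was lower in B cells at 6.828 CPM at 18 months and 29.86 CPM at 2 months (log2 ratio -2.13).

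In T cells 2 of 30 genes were higher and 4 lower (median -0.02 against 0.03 over all genes, 6.135% of them higher and 3.283% lower). Lta was lower there too, 6.691 CPM at 18 months and 15.31 CPM at 2 months, and Tnfsf11, the cytokine RANKL, was higher at 39.67 CPM at 18 months and 22.18 CPM at 2 months. In neutrophils 2 of 27 were higher and 4 lower (median 0.03, and 0.03 over all genes, 7.327% of them higher and 11.34% lower). Map3k14, the kinase NIK of the lymphotoxin route, had 47.45 CPM at 18 months and 24.36 CPM at 2 months, and Tnfsf13b 23.72 CPM at 18 months and 39.49 CPM at 2 months.

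In fibroblasts 12 of 35 genes were higher and 2 lower, with a median of 0.35 against 0.04 over all genes, of which 7.134% were higher and 2.79% lower. Among them Nfkb2 had 26.41 CPM at 18 months and 16.88 CPM at 2 months and Tnfsf13b 19.77 CPM at 18 months and 10.67 CPM at 2 months. Ackr4, a scavenger of CCL19 and CCL21, was lower at 12.37 CPM at 18 months and 19.59 CPM at 2 months. Ackr3, the scavenger receptor for CXCL12, had 161.9 CPM at 18 months and 221.9 CPM at 2 months (log2 ratio -0.45), short of the rule, as was Ccl19 with 84.81 CPM at 18 months and 59.56 CPM at 2 months. Rac2, Ltb, Dock2, Pik3cg, Ccr7, Mmp9, Rgs1 and S1pr1 were also among the 12 higher genes. Their free RNA estimates came to between 80.65% and 206.6% of their levels in the libraries. For Ackr1, also higher, 5 cells held 53.33% of the 18-month UMIs.

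In capillary cells 10 of 29 were higher and 1 lower (median 0.32 against -0.01 over all genes, 4.903% of them higher and 4.248% lower), with Relb at 42.21 CPM at 18 months and 26.83 CPM at 2 months and Nfkb2 at 39.15 CPM at 18 months and 24.05 CPM at 2 months. Both are subunits of the non-canonical NF-kB route that lymphotoxin triggers. Of the other measured genes of the lymphotoxin list in capillary cells, Ltb passed the rule. Ltbr (log2 ratio -0.03), Map3k14 (-0.09) and Tnfsf13b (0.61) did not. In arterial cells Relb (0.05) and Nfkb2 (0.46) did not pass either. Cd74, a receptor for MIF that pairs with CXCR4, had 670.3 CPM at 18 months and 302.8 CPM at 2 months, of which the free RNA estimate was 96.88% and 140.8%. For the other 7 higher genes the free RNA estimates at 18 months were 141.9% of the level for Mmp9, 106.4% for Rgs1, 94.54% for Rac2, 65.95% for Ltb, 61.87% for Dock2, 59.75% for Rgs2 and 35.91% for Pik3cg. In arterial cells Cd74 alone was higher, as 1 of 24 genes with 0 lower (median 0.11 against 0.01 over all genes, 4.144% of them higher and 2.514% lower), at 637.9 CPM at 18 months and 416.5 CPM at 2 months, of which the free RNA estimate was 68.67% and 81.36%. For Relb and Nfkb2 in capillary cells the free RNA estimates were 5.552% to 9.222% of the level, and the cause of their ratios was not tested.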

How the data were processed

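The authors deposited gene matrices of counts, as UMIs per gene and cell barcode, unscaled per the file headers; per the submitters' processing notes, Cell Ranger 3.1.0 made them on GRCm38 (mm10). The authors' deposited text names Seurat 4.0.6 and a heart filter of 200 genes, 8% mitochondrial UMIs and 15000 UMIs. The 7 genes, the lists and the tests were chosen with earlier results of these data known. Here, cells had at least 200 genes and at most 15% (heart) or 10% (lymph node) mitochondrial UMIs. This kept 8035 of 8844 barcodes at 18 months, 11388 of 12235 at 2 months. Scrublet (expected rate 8%) took out 207 and 474 heart doublets; it called 0 in the lymph node (13016 barcodes), where 2342 cells with several and 318 with no hashtag were left out (a call needed 20 counts and 3 times the next tag). Clustering (Leiden, resolution 1, 2000 variable genes, 30 components, 15 neighbours) left out the 7 genes. A cluster was named with at least 3 of its own markers raised, unless its 10 leading genes went against it or another class reached 60% of its markers; these limits were set after seeing the data. Counts were summed per class; ratios carry exact conditional binomial, CPM exact Poisson and shares Clopper-Pearson 95% intervals. With 1 library per age no p was computed. The text names all 7 genes, the 3 most like genes of each over the heart (and of Cxcr4 and Cxcr5 over the lymph node) (pseudocount 1), and list genes past the rule in 7 classes, of which it prints examples, with Ackr3 and Ccl19 added after their values were seen. Contig counts, deposited per cell and chain per the file headers, served to find cells with a productive alpha chain. 1 of 10 lymph node states, and the genes most like Cxcr6 there, are not reported here. The separate hashtag library was not analysed here. Alternatives were other filters, doublets kept, thinning to 1000 UMIs, equal weights, free RNA, subsets and resolutions; the steps were tested on simulated data. Tools were scanpy 1.11.5, leidenalg 0.10.2, igraph 0.11.9, scikit-learn 1.9.0, scipy 1.17.1, matplotlib 3.10.9, numpy 2.4.6 and pandas 2.3.3 under Python 3.11.15 (random seed 1).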

Additional observations from a re-analysis of the deposited data

Results flagged for a closer look

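In lymph node Gzmk T cells, Cxcr4 in the Hashtag6 sample was 73.12 CPM (82 cells), with the next of the 5 samples at 35.49 CPM. In memory CD4 T cells Cxcr4 in the Hashtag6 sample was 39.18 CPM (42 cells), with the next of 7 samples at 27.23 CPM. In virtual memory CD8 T cells Cxcr5 in the Hashtag2 sample was 44.7 CPM (34 cells), with the next of 8 samples at 21.62 CPM. The whole states held 148 Cxcr4 UMIs (Gzmk T), 38 Cxcr4 UMIs (memory CD4 T) and 69 Cxcr5 UMIs (virtual memory CD8 T). Each flagged sample holds only a part of these, and its counting error is not given here. The 3 flagged samples came from 25 groups of samples, and chance picks out about 1 in 20. Cxcl16, a ligand that the receptor comparison of the lymph node does not use, was at 882 CPM (412 UMIs) in the Fscn1 Ccl22 cluster, above what a count of 0 allows.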

How the results depend on the processing

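The log2 ratio of capillary Cxcl12 (0.15) was 0.18 with cells thinned to 1000 UMIs, 0.19 with equal weight per cell, 0.01 in cells with Xist and 0.31 in cells with Y-linked UMIs, and 0.61, 0.52, 0.35 and 0.26 between single hashtags. Cxcl13 in the Lyve1 Folr2 cluster (2.35) was 6.46 under the authors' filter, 2.89 thinned, 2.97 with equal weight, 4.37 without the 5 richest cells, 5.25 with Xist, 1.25 with Y-linked UMIs, and -0.47, 6.86, 1.46 and 8.80 between hashtags. Cxcl14 in fibroblasts (1.08) was 0.57, 0.95, 0.67 without the 5 richest cells, 0.92 with Xist, 1.20 with Y-linked UMIs, 2.80 and 6.31 between hashtags (21 cells of Hashtag11), 0.99 at resolution 0.5 and 0.55 with equal cluster weights. Cxcl16 in macrophages (0.26) was 0.16 in cells with Y-linked UMIs and 0.34 between Hashtag12 and Hashtag09. Cxcr4 in neutrophils (0.72) was 0.48 under the authors' filter, 0.35 thinned, 0.44 with equal weight, 1.04 with Xist, 1.71 with Y-linked UMIs, 0.90 and 0.92 between hashtags, 0.33 at resolution 0.5 and 0.15 in the largest cluster alone, an alternative chosen after seeing the data, as was leaving out cells with several hashtags. Cxcr5 in B cells (0.06) was -0.14 under the authors' filter, -0.19 centred on all genes, -0.53 with Xist, and 0.48 and 0.53 over Hashtag10. Cxcr6 in T cells (0.81) was 1.21 with doublets kept, 2.62 with Xist, 0.56 with Y-linked UMIs, and 1.04, 0.99 and 0.62 between hashtags. Reversed were Cxcr4 in B cells with Xist (-0.29), Cxcl16 in monocytes with Xist (0.84), Cxcl12 in cardiomyocytes without the 5 richest cells (-0.83) and Cxcl12 in neutrophils with doublets kept (0.38). The cause of these shifts was not tested. The count of 20 pairs was 15 with at least 50 UMIs and 12 at 2-fold. Over its settings Cxcr4 in macrophages stayed between 0.43 and 0.94 and in arterial endothelium between -1.32 and -0.52. Cxcr5 in lymph node follicular helper T cells (158.5 CPM) was 188.6 with doublets kept, 117.6 at resolution 0.5 and 137.1 without hashtag 8.

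No paired analysis was possible because each age had 1 heart library, and the ages of the lymph node hashtag samples were not used; states there were set side by side within each hashtag sample. Depth limits the low levels most: 18-month B cells had fewer UMIs per cell than 2-month B cells, and classes with few cells rest on few UMIs. Subsets by hashtag hold few stromal cells, since most of these carried no hashtag.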
